A study of Mus musculus with 10 samples.

Results

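The genes described here are interleukin 6 (Il6) and 9 chemokines, Cxcl1, Cxcl2, Cxcl10, Ccl2, Ccl5, Ccl7, Ccl8, Cxcl12 and Cx3cl1, taken by symbol from a raw count table of 25239 genes in mouse Leydig cells. All 10 were in the table, each once. The first comparison was between primary Leydig cells from the testes of 24-month-old mice (2 libraries) and of 2-month-old mice (2 libraries), neither of them treated. The second was between MLTC-1 cells, an established mouse Leydig tumour line, given hymeglusin (3 libraries) and MLTC-1 cells given its solvent DMSO (3 libraries). Hymeglusin inhibits 3-hydroxy-3-methylglutaryl-CoA synthase, an enzyme of ketone body and cholesterol synthesis, and the series' title places the study in ketogenesis and testicular aging. The dose and duration of hymeglusin, the strain of the mice and the way Leydig cells were isolated are not given in the labels used here. Nothing in the labels says whether libraries of a group came from separate cultures or animals. The p-values therefore measure only the spread between these libraries, which may be technical.

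Chemokines are small secreted proteins that guide the movement of white blood cells through receptors on those cells. Cxcl1 and Cxcl2 attract neutrophils, Ccl2, Ccl7 and Ccl8 attract monocytes, Ccl5 attracts T cells and monocytes, and Cxcl10 attracts activated T cells. Il6 encodes a cytokine that signals through the shared receptor subunit Il6st (gp130), the kinases of the JAK family and STAT3. Transcription of many of these genes is raised by NF-kappa B, and that of Cxcl10 also by interferon. Cxcl12 is made constitutively by many stromal cells, and Cx3cl1 is a chemokine anchored in the membrane of the cell that makes it. In the testis, Leydig cells lie in the interstitium beside resident macrophages.

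The members sit largely in clusters of related genes. Cxcl1 (chr5:90891245-90893121), Cxcl2 (chr5:90903899-90905938) and Cxcl10 (chr5:92346638-92348889, minus strand) lie on chromosome 5, where Il6 (chr5:30013114-30019975) lies far from them. Ccl2 (chr11:82035577-82037452), Ccl7 (chr11:82045712-82047525), Ccl8 (chr11:82115185-82116799) and Ccl5 (chr11:83525778-83530518, minus strand) lie on chromosome 11. Cxcl12 (chr6:117168535-117181368) and Cx3cl1 (chr8:94772180-94782427) stand apart from these clusters. Coordinates are those of GRCm38.p6, the build that mm10 names.

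Promoter sequences from RefSeq on GRCm38.p6 were matched for 7 of the 10 genes. The 250 bases before the start site are shown for 4 of the genes whose counts were higher at 24 months and for Cxcl12, which was not called changed with age, to show where NF-kappa B type sequences (kappa B motif, searched by its consensus on both strands) and interferon-type sequences lie. They run 5′ to 3′ on the gene's own strand, with kappa B matches in capitals and, in Cxcl10, the match to the interferon-type motif GAAANNGAAA in capitals as well.
Cxcl1, chr5:90890995-90891244, plus strand: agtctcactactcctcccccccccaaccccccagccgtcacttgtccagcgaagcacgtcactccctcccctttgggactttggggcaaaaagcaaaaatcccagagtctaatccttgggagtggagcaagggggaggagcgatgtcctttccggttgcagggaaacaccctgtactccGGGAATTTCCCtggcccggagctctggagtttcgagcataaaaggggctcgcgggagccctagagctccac
Cxcl2, chr5:90903649-90903898, plus strand: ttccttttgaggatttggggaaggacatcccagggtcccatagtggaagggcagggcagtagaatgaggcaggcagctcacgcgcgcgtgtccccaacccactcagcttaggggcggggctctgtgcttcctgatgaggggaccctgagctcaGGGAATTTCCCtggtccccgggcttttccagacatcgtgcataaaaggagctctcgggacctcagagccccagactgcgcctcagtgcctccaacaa
Cxcl10, chr5:92348890-92349139, minus strand: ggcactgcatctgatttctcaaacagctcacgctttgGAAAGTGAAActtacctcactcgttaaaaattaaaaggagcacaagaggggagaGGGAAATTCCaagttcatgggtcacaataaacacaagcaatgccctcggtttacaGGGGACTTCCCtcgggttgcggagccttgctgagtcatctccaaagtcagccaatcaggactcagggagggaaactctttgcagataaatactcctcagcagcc
Il6, chr5:30012864-30013113, plus strand: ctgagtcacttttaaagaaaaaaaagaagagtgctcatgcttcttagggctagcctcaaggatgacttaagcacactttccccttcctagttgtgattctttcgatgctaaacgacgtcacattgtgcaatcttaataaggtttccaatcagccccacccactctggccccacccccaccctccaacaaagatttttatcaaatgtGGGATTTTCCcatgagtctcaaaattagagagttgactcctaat
Cxcl12, chr6:117168285-117168534, plus strand: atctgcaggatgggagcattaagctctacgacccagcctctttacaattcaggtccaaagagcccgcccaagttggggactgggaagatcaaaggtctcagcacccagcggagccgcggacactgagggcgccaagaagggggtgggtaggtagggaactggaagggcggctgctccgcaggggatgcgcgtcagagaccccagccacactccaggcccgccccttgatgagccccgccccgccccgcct

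Cxcl1 and Cxcl2 held the same kappa B stretch, GGGAATTTCCC, at -71 to -61 and -97 to -87 from their starts. It matched on both strands in each. Il6 held a match at -44 to -35. Cxcl10 held matches at -159 to -150 and at -104 to -94, and the interferon-type motif at -213 to -204. No kappa B match was found in the 300-base windows (250 before and 50 after the start) of Cxcl12, Cx3cl1 and Ccl8. Of these, Ccl8 was called higher at 24 months and Cx3cl1 lower, and the promoters of both are not printed. Of 32851 RefSeq promoters searched over the same 300 bases, 8.46% held a kappa B match and 3.44% held the interferon-type motif. A match describes these letters and is no measure of binding.

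Total counts ran between 17407456 and 34787330 per library, and a count of 3, used as the floor of detection, was worth between 0.0858 and 0.203 CPM. CPM, the standard unit of a gene's count relative to the total of its library, was computed here with the totals scaled by the trimmed mean of M values (TMM) within each comparison. The biological coefficient of variation was 0.307 among primary libraries and 0.0509 among MLTC-1 libraries. The first value covers both ages, whose spreads were unequal. Between the 2 libraries of an age, the chi-square of the counts per degree of freedom was 134 at 24 months and 18.9 at 2 months. The lowest total was that of the first 24-month library. Its 10 most abundant genes held 9.65% of its counts, against 6.64% in the second 24-month library. The Leydig genes Cyp17a1, which encodes a steroid hydroxylase, and Star, which encodes the carrier of cholesterol into mitochondria, were abundant in every library of both cell types, with at least 11404 counts of Cyp17a1 and 10807 counts of Star. RNA of other testis cells was also present in the primary libraries. Its values are given beside the age results.

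The members split by cell type. In MLTC-1 cells Cxcl12 alone was abundant, with counts between 8779 and 13223 in the 6 libraries. Il6, Ccl2, Ccl7, Ccl8 and Cxcl2 had a count of 0 in all 6 MLTC-1 libraries, and Ccl5 had 2 counts in a single DMSO library. All 10 genes were detected in the 24-month libraries, and Il6 alone was at 0 in both 2-month libraries. On a scale of CPM per kilobase of transcript, TMM-scaled over all 10 libraries, Cxcl1 had the highest level in primary cells, with means of 1357 at 24 months and 151 at 2 months. Cxcl10 came next at 24 months with 399 CPM per kilobase, and had 18.4 at 2 months, close to the 18.8 of Cx3cl1 there. Cxcl12 stood at 51.0 CPM per kilobase at 24 months, 62.9 at 2 months, 55.9 in hymeglusin-treated cells and 64.5 in DMSO-treated cells. The ranges of those 4 groups overlapped except between hymeglusin and each of DMSO and 2 months. The levels of Cxcl12 per kilobase rest on a transcript of 5627 bases, and with its shortest RefSeq-linked transcript of 1878 bases they would be 153, 188, 167 and 193 at 24 months, 2 months, hymeglusin and DMSO, which at 2 months lies above Cxcl1. MLTC-1 and primary cells differ in source, culture and preparation at once, so no test was made between them.

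**Figure D1:**
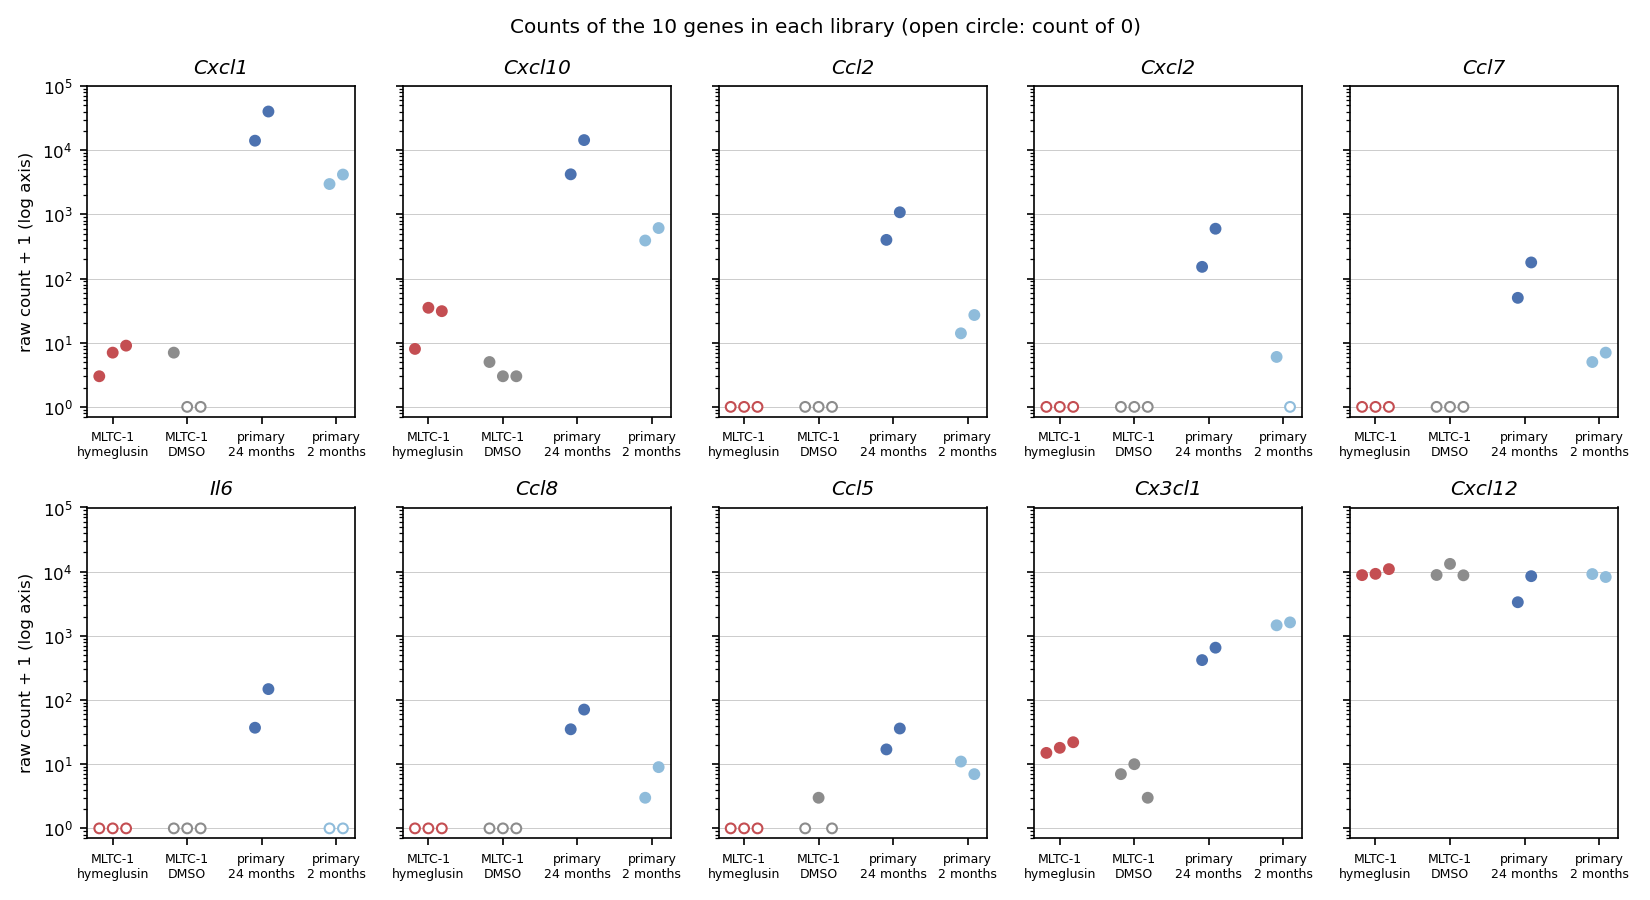
Raw count plus 1 (log axis) of each of the 10 genes in each library, with the groups from left to right being MLTC-1 hymeglusin, MLTC-1 DMSO, primary 24 months and primary 2 months. Filled points are libraries with a count above 0 and open points are libraries at 0. Cxcl12 is high in all 10 libraries, whereas Il6 is above 0 in the 24-month libraries alone.

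In primary cells, 7 of the 10 genes were called higher at 24 months than at 2 months and Cx3cl1 was called lower, by edgeR's quasi-likelihood test with Benjamini-Hochberg adjustment over 16381 genes. Among all genes tested, 13.5% were called higher and 15.1% lower. Il6, Ccl7, Ccl8 and Cxcl2 passed the filter on low counts through their 24-month libraries alone, so a difference was built into their being tested and the count of 7 is a description. The median log2 fold change of the 10 genes was 4.13, also with Il6 put at its lower bound, and that of all genes tested was -0.01.

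Both neutrophil-attracting chemokines were higher at 24 months. Cxcl1 had 14054 and 40023 counts at 24 months, against 2966 and 4169 counts at 2 months. In CPM this was 952 and 1660 at 24 months, against 121 and 153 at 2 months. Every 24-month library thus lay above every 2-month library. Here and below, a lack of overlap describes these libraries only, since the share of all genes without overlap was not computed. Cxcl1 averaged 1306 ± 500.5 CPM at 24 months and 137 ± 22.7 CPM at 2 months (SD, n = 2 each), with a log2 fold change of 3.25 (SE 0.41, edgeR adjusted p = 0.00281). Cxcl2 had 151 and 596 counts at 24 months, against 5 and 0 counts at 2 months. The groups did not overlap, and the 2-month libraries were at or near the floor. Cxcl2 averaged 17.5 ± 10.2 CPM at 24 months and 0.102 ± 0.145 CPM at 2 months (SD, n = 2 each; edgeR adjusted p = 0.0026). The ratio of its pooled counts was 198 (95% exact interval 84.7 to 613, counting error only). Of the 50-base stretches of the longest RefSeq-linked Cxcl2 transcript, 5.76% also occur in Cxcl3, a gene of the same cluster. Some reads of these paralogs could therefore be assigned to either gene.

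Cxcl10, the interferon-responsive chemokine, had 4204 and 14362 counts at 24 months, against 390 and 611 counts at 2 months. Its CPM were 285 and 596 at 24 months, against 16.0 and 22.5 at 2 months. The groups did not overlap. Cxcl10 averaged 440.4 ± 220 CPM at 24 months and 19.2 ± 4.62 CPM at 2 months (SD, n = 2 each), with a log2 fold change of 4.52 (SE 0.47, edgeR adjusted p = 0.00143). Its transcript overlaps 133 exonic bases of Art3 on the opposite strand, and no strand setting of the counting is given in the sources used here. Art3, which encodes an ADP-ribosyltransferase family member, averaged 111 ± 16.7 CPM at 24 months and 97.4 ± 7.10 CPM at 2 months (SD, n = 2 each), with a log2 fold change of 0.19 (edgeR adjusted p = 0.667).

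The monocyte-attracting chemokines of the chromosome 11 cluster were higher at 24 months as well. Ccl2, also called MCP-1, had 399 and 1076 counts at 24 months, against 13 and 26 counts at 2 months. This was 27.0 and 44.6 CPM at 24 months, against 0.532 and 0.957 CPM at 2 months, with no overlap. Its log2 fold change was 5.57 (SE 0.50, edgeR adjusted p = 0.000787), and it ranked 19 by p-value among all genes tested. Ccl7 had 49 and 177 counts at 24 months, against 4 and 6 counts at 2 months, a log2 fold change of 4.76 (SE 0.69, edgeR adjusted p = 0.00528). Ccl8 had 34 and 70 counts at 24 months, against 2 and 8 counts at 2 months, and its log2 fold change was 3.73 (SE 0.78, edgeR adjusted p = 0.0130). Neither gene's groups overlapped, and at 2 months both stood within a few counts of the floor. The Ccl8 call was lost without the first 2-month library, where the adjusted p was 0.107. Ccl5, which attracts T cells, had 16 and 35 counts at 24 months, against 10 and 6 counts at 2 months. This was 1.08 and 1.45 CPM at 24 months, against 0.409 and 0.221 CPM at 2 months. The log2 fold change of 2.01 (SE 0.76) did not pass the test (edgeR adjusted p = 0.0718).

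Il6 had 36 and 147 counts at 24 months, against 0 and 0 counts at 2 months. This was 2.44 and 6.10 CPM in the 24-month libraries. Its mean of 4.27 CPM, set against the mean floor of 0.117 CPM that 3 counts per library make at 2 months, was at least 36.6-fold higher at 24 months (edgeR adjusted p = 0.00464). The gene stood at a low level even at 24 months, with 3.71 CPM per kilobase against 1357 for Cxcl1.

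Within the 24-month group the second library had the higher CPM of all 7 genes called higher. The ratio of the second to the first library was 2.50 for Il6, 2.42 for Cxcl2, 2.21 for Ccl7, 2.09 for Cxcl10, 1.74 for Cxcl1, 1.65 for Ccl2 and 1.26 for Ccl8. The 7 genes kept their directions without either 24-month library. Those fits left 1 library at 24 months, so their calls are not taken as support.

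Cxcl12 and Cx3cl1 did not follow the others. Cxcl12, a chemokine of stromal and vascular cells, had 226 and 353 CPM at 24 months, against 376 and 304 CPM at 2 months. The groups overlapped, and the log2 fold change of -0.23 (SE 0.35) did not pass the test (edgeR adjusted p = 0.641). Its value depended on the 24-month libraries: without the first it was 0.011 (edgeR adjusted p = 0.966), and without the second it was -0.64 (edgeR adjusted p = 0.0146). Cx3cl1, which binds the receptor Cx3cr1 of monocytes and macrophages, had 418 and 653 counts at 24 months, against 1459 and 1620 counts at 2 months. This was 28.3 and 27.1 CPM at 24 months, against 59.7 and 59.6 CPM at 2 months. The libraries of each age nearly coincided and the ages did not overlap. Cx3cl1 was lower at 24 months with a log2 fold change of -1.11 (SE 0.31, edgeR adjusted p = 0.0288). The call was lost without either 2-month library. The log2 fold change was then -1.12 without the first and -1.13 without the second, with an SE of 0.63 in each.

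Transcript length moved with the age difference across all genes. Tested genes were divided by transcript length into 10 equal bins. In the shortest bin, up to 988 bases, the median log2 fold change was 1.40 and 52.1% were called higher. In the longest bin the median was -1.45 and 56.5% were called lower. Ccl2, Ccl5, Ccl7, Ccl8 and Cxcl1 have transcripts in the shortest bin, and Il6, Cxcl2 and Cxcl10 have transcripts in the next, where the median was 0.95 and 32.5% were called higher. Cx3cl1, at 3315 bases, falls in a bin with a median of -0.46, and Cxcl12, at 5627 bases, in a bin with a median of -1.02. With an offset for this trend in each library, the calls left were Il6, Ccl2, Ccl7, Cxcl1, Cxcl2 and Cxcl10. That is 6 of 10 genes higher, against 7.84% of all genes tested, and 0 lower, against 4.98%. Of the 6, Il6, Ccl7 and Cxcl2 passed the filter through their 24-month libraries alone, so this count is also a description. At an unadjusted p under 0.05 in that fit, 1 of the 10 genes, Cx3cl1, was lower, against 12.6% of all genes tested. The log2 fold changes with the offset were 6.50 for Cxcl2 (edgeR adjusted p = 0.00339), 4.40 for Ccl2 (9.29e-05), 3.62 for Ccl7 (0.00454), 3.57 for Cxcl10 (0.00058) and 2.17 for Cxcl1 (0.0030), and the adjusted p of Il6 was 0.000877. Ccl8 had a log2 fold change of 2.29 with an adjusted p of 0.0758, and Ccl5 had 0.56 with an adjusted p of 0.714. Cx3cl1 stood at -0.77 (adjusted p = 0.102). The sign of Cxcl12 turned, to 0.83 (SE 0.30, edgeR adjusted p = 0.0732). Since RefSeq-linked transcripts of Cxcl12 run between 1878 and 5627 bases, its offset is uncertain.

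**Figure D2:**
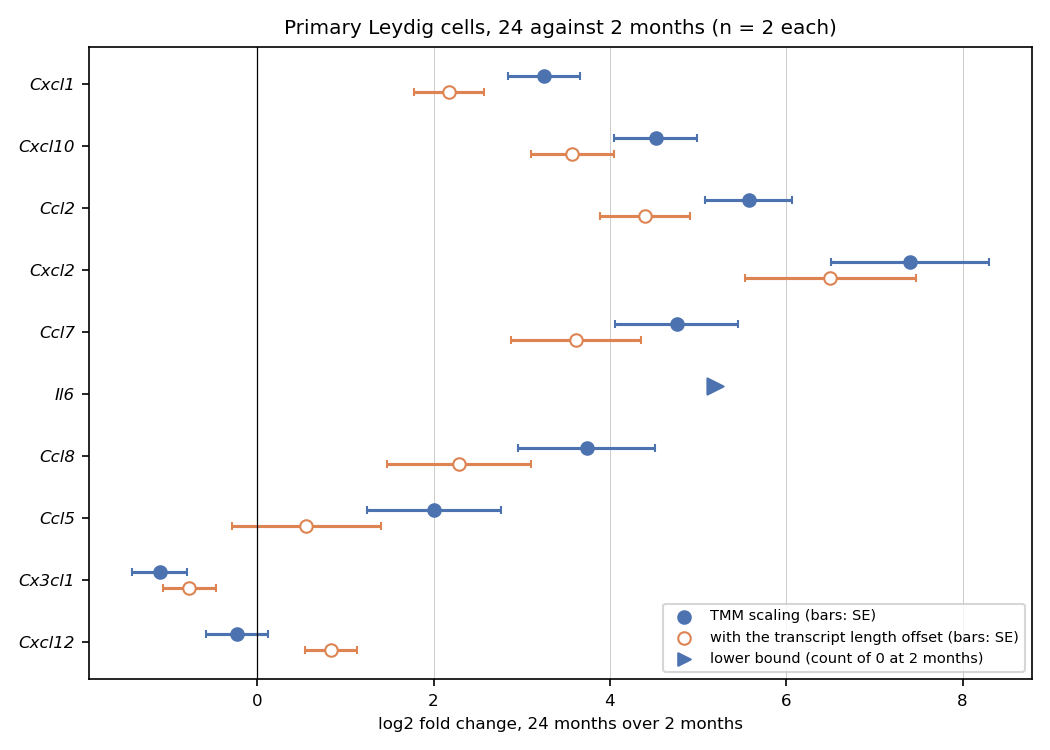
Log2 fold change of the 10 genes in primary Leydig cells at 24 months over 2 months (horizontal axis), with filled points for TMM scaling, open points for the fit with the transcript length offset, and bars for the SE of each. The triangle marks the lower bound of Il6, and the offset lowers the value of every other gene to the right of 0 while Cxcl12 moves across 0, to 0.83.

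**Figure D3:**
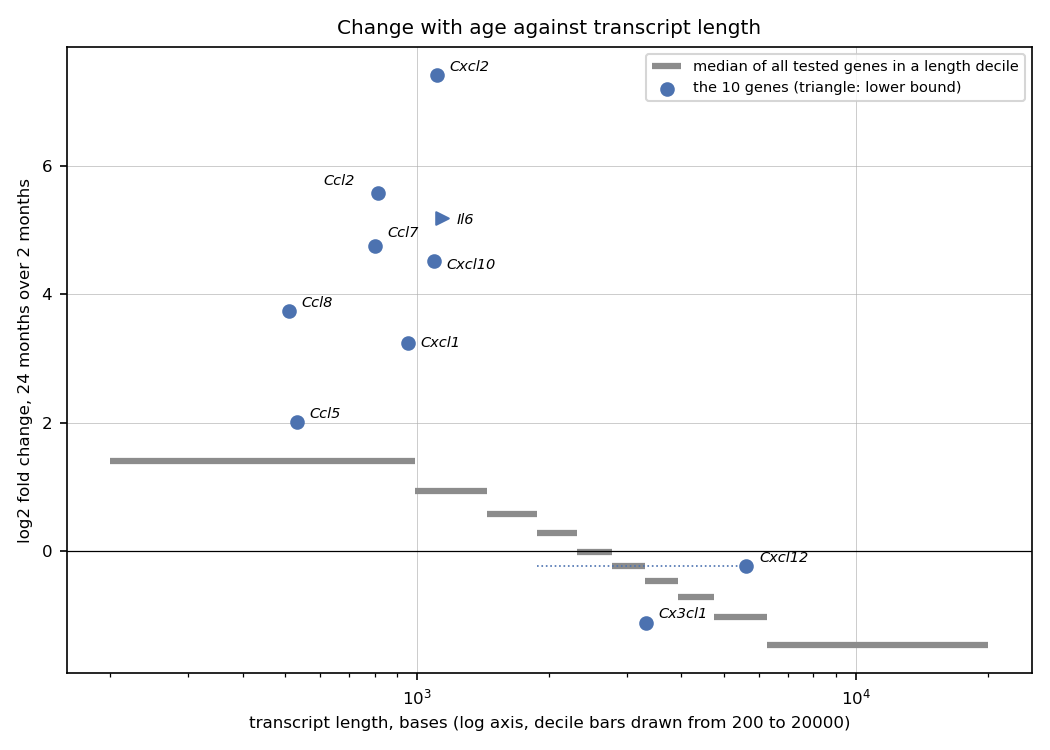
Log2 fold change at 24 months over 2 months (vertical axis) against transcript length in bases (log axis). Grey bars are medians of all tested genes in 10 equal bins of length, points are the 10 genes, and the dotted line spans the RefSeq-linked lengths of Cxcl12. The medians run downward with length, and the 8 short genes lie above the median of their own bin.

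Markers of other cell types also differed with age, and their part in the results was not tested. Fewer cells of a type and less RNA per cell cannot be told apart in such bulk libraries. Marker values here are without the length offset, and 52.1% of genes in the shortest length bin were called higher with age. The summed level of 14 macrophage markers was 148 and 151 CPM at 24 months, against 23.0 and 22.6 CPM at 2 months. Most of the sum at 24 months was Cd14, with 90.5 and 103 CPM there, against 8.96 and 7.73 CPM at 2 months. Of the 11 tested, Cd14, Lyz2, C1qa, C1qb and C1qc were called higher and none lower. For this and the marker counts below, the shares of all genes tested were 13.5% called higher and 15.1% called lower. Cd68, Mrc1, Cd163 and Tyrobp were not called, with log2 fold changes of 1.01, 0.05, -0.25 and 1.38. The macrophage receptor genes Adgre1 (F4/80), with 6 and 6 counts at 24 months against 14 and 24 at 2 months, and Csf1r, with 31 and 50 counts at 24 months against 39 and 56 at 2 months, were not called. The 9 neutrophil markers other than Lcn2 summed to 14.2 and 93.1 CPM at 24 months, against 0.941 and 1.03 CPM at 2 months, and the 5 that could be tested were called higher. Of these, S100a8, S100a9, Camp and Ngp passed the filter through the 24-month libraries alone, so that their count is a description. The sum of the 9 markers was higher in the second 24-month library, as were the 7 members called higher. So were the stromal sum and that of spermatogonia and spermatocyte markers (84.4 and 177 CPM at 24 months). The macrophage sum was nearly the same in the 24-month libraries (148 and 151 CPM). Its Cd14 and Lyz2 were higher in the second 24-month library, and its C1qa, C1qb, C1qc, Cd68 and Mrc1 were lower. The lymphocyte, endothelial, peritubular myoid, Sertoli, spermatid and Leydig sums were lower in that library. The Sertoli sum was mostly Amhr2, with 422 and 246 CPM at 24 months. MLTC-1 libraries also held Amhr2, with between 2101 and 3269 counts, so that sum is no measure of Sertoli RNA alone. Ly6g was at 0 in all 4 libraries. Lcn2, which Leydig preparations also held in abundance, had 265227 and 196275 counts at 24 months, against 92535 and 85481 at 2 months. Lymphocyte markers summed to 18.6 and 8.50 CPM at 24 months, against 6.38 and 4.34 CPM at 2 months, and of the 3 tested Cd3d came nearest to a call (log2 1.85, edgeR adjusted p = 0.0568). Spermatid markers, whose transcripts are short, summed to 9462 and 4726 CPM at 24 months, against 1455 and 1818 CPM at 2 months, and 6 of 7 were called higher. Stromal markers summed to 170 and 254 CPM at 24 months, against 625 and 629 CPM at 2 months, with 2 of 7 called higher and 3 lower, where Lum, one of those called higher, passed the filter through the 24-month libraries alone. Leydig markers summed to 26146 and 17229 CPM at 24 months, against 20931 and 17851 CPM at 2 months, with 1 of 8 called higher (Insl3) and 1 lower (Lhcgr).

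Among 28 other chemokine genes, 14 could be tested with age. Of these, 7 were called higher and 0 lower by edgeR and by DESeq2, with 0 lower at an unadjusted p under 0.05. Of all genes tested, edgeR called 13.5% higher and 15.1% lower, and 7.84% and 4.98% with the length offset. Of the 7, Ccl3, Ccl6, Cxcl3 and Cxcl9 passed the filter through the 24-month libraries alone, so that the count is a description. With the length offset 5 were called higher, with total counts 4, without the first 2-month library 1 and without the second 3. Cxcl3, a neutrophil attractant in the same cluster as Cxcl1 and Cxcl2, had 16 and 73 counts at 24 months and 0 in both 2-month libraries (edgeR adjusted p = 0.00937). Cxcl13, which attracts B cells, averaged 5.48 ± 0.774 CPM at 24 months and 0.757 ± 0.0292 CPM at 2 months (SD, n = 2 each), with a log2 fold change of 2.85 (edgeR adjusted p = 0.00944). Without the first or the second 2-month library its adjusted p was 0.0616 and 0.0505. Ccl3 had 16 and 38 counts at 24 months, against 0 and 2 at 2 months (edgeR adjusted p = 0.0145, and 0.143 without the first 2-month library). Ccl3 overlaps Ccl4 in the RefSeq annotation, so their reads are uncertain. Of 23 receptor genes, 9 were tested, 1 was called higher and 1 lower. Ackr3, a scavenging receptor for CXCL12, averaged 13.3 ± 8.80 CPM at 24 months and 1.64 ± 0.234 CPM at 2 months (SD, n = 2 each), with a log2 fold change of 3.02 (SE 0.55, edgeR adjusted p = 0.00966). Ccr10, a receptor of skin and mucosal lymphocytes, was lower at 24 months, with a log2 fold change of -2.36 (SE 0.57, edgeR adjusted p = 0.0190). That call was lost without either 2-month library, with adjusted p of 0.111 and 0.141.

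Of all genes tested with age, 13.5% were called higher and 15.1% lower, and 7.84% and 4.98% with the length offset. In the IL-6 signalling list, 17 of 19 genes were tested. Of these, 2 were called higher and 7 lower, and with the length offset 2 were higher and 2 lower. These counts were 0 and 1 without the first 2-month library, 1 and 3 without the second, and 1 and 4 with total counts. Socs3, the feedback inhibitor induced by STAT3, averaged 1665 ± 10.2 CPM at 24 months and 418 ± 93.7 CPM at 2 months (SD, n = 2 each), with a log2 fold change of 1.99 that was 2.00 with the offset (edgeR adjusted p = 0.00888 and 0.000519). The call was lost without the first 2-month library (adjusted p = 0.194) and without the second (0.0712). Il6st, the signalling subunit that IL-6 requires, had 245 and 800 counts at 24 months, against 3100 and 2771 counts at 2 months. Its log2 fold change was -2.197 (edgeR adjusted p = 0.00985), and -0.77 with the offset, where the call was lost (adjusted p = 0.109). Jak2 and Adam17, a kinase of the pathway and the protease that sheds the IL-6 receptor, had log2 fold changes of -1.97 and -1.70, and of -1.09 and -0.97 with the offset (adjusted p = 0.0322 and 0.0486). Without the first 2-month library neither was called (0.0653 and 0.110), and without the second Adam17 was not (0.0506). Of 8 other inflammatory cytokines tested, 2 were called higher and 1 lower, and 0 in either direction without the first or without the second 2-month library. Tnf, whose protein is a principal inflammatory cytokine, had 14 and 38 counts at 24 months, against 2 and 2 at 2 months, a log2 fold change of 3.95 (SE 0.90, edgeR adjusted p = 0.0161). It passed the filter through the 24-month libraries alone, and the call was lost without either 2-month library (0.157 and 0.134). Mif had a log2 fold change of 1.91 and Csf1, the macrophage growth factor, of -1.29, and neither call held with the offset (0.26 and -0.63).

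The shares of all genes called higher and lower with age were 13.5% and 15.1%, and 7.84% and 4.98% with the length offset. Of 19 transcription factors and feedback genes of cytokine transcription, all tested, 5 were called higher and 4 lower with age. With the length offset 5 were higher and 0 lower, where 2 were lower at an unadjusted p under 0.05. The numbers called lower were also 0 with total counts and without either 2-month library, where 4 and 5 were higher. Irf1, an interferon-induced factor, averaged 721 ± 194 CPM at 24 months and 52.2 ± 8.37 CPM at 2 months (SD, n = 2 each), with a log2 fold change of 3.79 (SE 0.39, edgeR adjusted p = 0.0014). Nfkbia, the inhibitor of NF-kappa B that NF-kappa B itself induces, had a log2 fold change of 3.43 (SE 0.38, edgeR adjusted p = 0.00182). Cebpb, a factor also known as NF-IL6, had a log2 fold change of 2.53 (SE 0.33, edgeR adjusted p = 0.00343). Ikbkg, Nfkb1 and Stat2 were called lower, with log2 fold changes of -1.41, -1.29 and -1.11, and none of the 3 calls held with the length offset, with total counts or without either 2-month library. Among 10 regulators of cytokine mRNA stability, 4 were called higher and 2 lower, and 4 and 0 with the offset, also at an unadjusted p under 0.05. Without either 2-month library 1 was higher and 0 lower, and with total counts 2 and 1. Arid5a, an RNA-binding protein that stabilizes Il6 mRNA, had 768 and 1110 counts at 24 months, against 46 and 45 counts at 2 months. Its log2 fold change was 4.79 (SE 0.38, edgeR adjusted p = 0.000485), and 5.89 with the offset. Zc3h12a (Regnase-1) and Zfp36 (tristetraprolin), which destabilize cytokine mRNAs, had log2 fold changes of 2.02 and 1.25 (edgeR adjusted p = 0.0096 and 0.0269). Both calls were lost without the first 2-month library (0.0804 and 0.452) and without the second (0.100 and 0.262), and that of Zfp36 also with total counts (0.0738). Khsrp and Rc3h1, which promote decay, had log2 fold changes of -1.16 and -1.29. With the offset, or without either 2-month library, neither call held, and the sign of Rc3h1 turned (0.30).

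In MLTC-1 cells, hymeglusin left most of the 10 genes at or near a count of 0, and only Cxcl12 and Cx3cl1 had enough counts to be tested. The first was called lower and the other higher with hymeglusin, where 24.5% of 12873 genes were called lower and 23.8% higher by edgeR. Cxcl12 had 309, 308 and 313 CPM with hymeglusin, against 377, 394 and 358 CPM with DMSO. All 3 hymeglusin libraries lay below all 3 DMSO libraries. Cxcl12 averaged 310.2 ± 2.70 CPM with hymeglusin and 376 ± 18.1 CPM with DMSO (SD, n = 3 each), with a log2 fold change of -0.28 (SE 0.05, edgeR adjusted p = 6.32e-06). With scaling to total counts it was -0.17 (edgeR adjusted p = 0.00195).

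Cx3cl1 had 14, 17 and 21 counts with hymeglusin, against 6, 9 and 2 counts with DMSO, and passed the filter through the hymeglusin libraries alone. The groups did not overlap in CPM. It averaged 0.552 ± 0.0569 CPM with hymeglusin and 0.201 ± 0.104 CPM with DMSO (SD, n = 3 each), with a log2 fold change of 1.40 (SE 0.52, edgeR adjusted p = 0.0236). The call was lost with DESeq2 (adjusted p = 0.0522), without a count filter (0.0517), without the third DMSO library (0.132), and without the second (0.0567) or the third (0.0771) hymeglusin library.

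Cxcl10 had 7, 34 and 30 counts with hymeglusin, against 4, 2 and 2 counts with DMSO, and did not pass the filter. The hymeglusin libraries lay above the DMSO libraries, the first by little. The ratio of pooled counts was 7.75 (95% exact interval 3.72 to 18.6, counting error only). With no count filter, edgeR put the log2 fold change at 2.86 (SE 0.63, adjusted p = 3.13e-05). Art3, on the opposite strand, was also called higher, at 2.16 ± 0.385 CPM with hymeglusin and 0.502 ± 0.193 CPM with DMSO (SD, n = 3 each), with a log2 fold change of 2.12 (SE 0.32, edgeR adjusted p = 9.52e-07). Reads of the 133 shared bases cannot be told apart without strand. Cxcl1 had 2, 6 and 8 counts with hymeglusin, against 6, 0 and 0 with DMSO. The ratio of its pooled counts, 2.33, had an interval of 0.865 to 7.26, so no difference was detectable at this depth.

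With hymeglusin, 23.8% of all genes tested were called higher and 24.5% lower. Of 4 other chemokine genes that could be tested, 0 were called by edgeR and 0 by DESeq2. An unadjusted p under 0.05 was reached by 0, while with total counts 1 was called higher. Ccl27a had a log2 fold change of 0.19 (edgeR adjusted p = 0.181) and Cxcl16 of 0.46 (edgeR adjusted p = 0.178). Of 5 receptor genes tested, Ackr3 was called lower, at 24.4 ± 1.59 CPM with hymeglusin and 43.7 ± 1.91 CPM with DMSO (SD, n = 3 each), with a log2 fold change of -0.84 (SE 0.07, edgeR adjusted p = 3.72e-12). Of 15 IL-6 signalling genes, 6 were called higher and 2 lower. Il6ra, the IL-6 receptor, had a log2 fold change of 0.86 (SE 0.12, edgeR adjusted p = 4.26e-07), and Stat3 and Adam17 had 0.25 each. Il6st and Cntfr were lower, at -0.33 and -0.75. Of 5 inflammatory cytokines, 1 was called higher and 3 lower, with Tgfb1 at 0.27, Mif at -0.73, Csf1 at -0.47 and Il18 at -0.28. The call of Il18 was lost in 5 of 15 alternatives.

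Among the 19 transcription factors and feedback genes, 10 were called higher and 5 lower with hymeglusin, and 12 and 3 with total counts. The shares of all genes called higher and lower by edgeR were 23.8% and 24.5%. Irf7, an interferon-induced factor, had a log2 fold change of 1.28 (SE 0.17, edgeR adjusted p = 9.41e-08), and Irf1 of 0.61. Nfkbiz, Cebpb and Chuk were lower, at -0.39, -0.28 and -0.23, and Chuk was not called with total counts (adjusted p = 0.0605). Among the 10 regulators of mRNA stability, 4 were called higher and 3 lower, and 6 and 0 with total counts. Arid5a averaged 30.4 ± 0.298 CPM with hymeglusin and 9.07 ± 0.449 CPM with DMSO (SD, n = 3 each), with a log2 fold change of 1.75 (SE 0.09, edgeR adjusted p = 3.42e-18), while Il6, whose mRNA it stabilizes, had a count of 0 in all 6 libraries. Zfp36 had a log2 fold change of 0.40 and Rc3h2 of 0.31, and Elavl1, Auh and Khsrp were called lower, between -0.20 and -0.12. With total counts none of these 3 was called, and across 15 alternatives the call was lost in 1 for Elavl1, in 6 for Auh and in 5 for Khsrp. Macrophage markers summed to between 3.32 and 4.17 CPM with hymeglusin and between 1.02 and 1.45 CPM with DMSO, with 9 of 14 at 0 in all DMSO libraries. Csf1r was called higher among them, with 77, 79 and 66 counts with hymeglusin and 9, 10 and 2 counts with DMSO (log2 3.20, edgeR adjusted p = 3.70e-09). Without Csf1r the sum was between 0.979 and 1.53 CPM with hymeglusin and between 0.744 and 1.06 CPM with DMSO, so that the ranges overlapped. By their DMSO libraries alone, none of the 3 macrophage markers tested would have passed the filter.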

How the data were processed

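The deposited table holds raw counts of reads per gene, which the authors made with fastp 0.23.4, HISAT2 2.2.1 and featureCounts 2.0.6 on mm10, per the submitters' processing notes. Libraries were made with a NEBNext Ultra kit, per the labels' protocols, and the counting's annotation and strand setting are not stated there. Groups came from the labels.

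Each comparison was fitted on its own libraries with edgeR 4.0.16 in R 4.3.3 (filterByExpr, minimum count 10 and minimum total 15; TMM; robust quasi-likelihood test, two-sided, adjusted p threshold 0.05 over all genes tested). SE are log2 fold change over the square root of F. DESeq2 1.42.0 and limma 3.58.1 were alternatives. The length offset was a loess trend (span 0.3) of each library's log ratio on the longest RefSeq-linked GENCODE M21 transcript. It was chosen, like the members and gene lists, with earlier results of these data known. Intervals and floors cover counting error only. The fits were tested on simulated data. All 10 members are named. Of each other list, up to 3 tested genes per direction with the smallest adjusted p were named, except a few not reported here; Ccl27a, Cxcl16, Cd3d, Art3 and the marker genes were chosen after their values were seen.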

Additional observations from a re-analysis of the deposited data

How the results depend on the processing

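Across 13 alternatives, Il6, Ccl2, Ccl7, Cxcl1, Cxcl2 and Cxcl10 kept their direction at 24 against 2 months. They kept their call in every alternative that left no library out. Alternatives that left a library out had 1 library in a group, so calls there are not taken as support. Il6, Ccl7 and Cxcl2 passed the filter through their 24-month libraries alone. Across 15 alternatives Cxcl12 kept its direction and call in MLTC-1 cells. For Cxcl12 with age the sign turned with the length offset (0.83), with the offset from the longest transcript of any kind (0.73, an alternative added after seeing the data) and without the first 24-month library (0.011; -0.64 without the second). For Rc3h1 it turned with both offsets (0.30 and 0.24). Members called higher with hymeglusin numbered 1, against 0 with DESeq2, 0 with a filter of 1 CPM, and 0 to 2 when a library was left out. Members called lower with age numbered 1, against 0 with either offset and 0 to 2 when a library was left out. Genes called higher with age numbered 2214, against 531 with total counts, 1285 and 1424 with the offsets, and 239 to 4259 when a library was left out. Genes called lower numbered 2471, against 1301, 816 and 907, and 602 to 5628. With hymeglusin, total counts gave 4659 higher and 1996 lower, against 3069 and 3149. Scaling to total counts moved the median of all genes to 0.11 with hymeglusin and -0.21 with age, and the share of calls that were higher to 70.0% (49.4% with TMM) and 29.0% (47.3% with TMM). With the length offset that share was 61.2% with age. Where a left-out library left 1 in a group, it was assumed to vary like the other libraries. The causes of these shifts were not tested.

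Same-numbered deviations correlated at 0.00, -0.02 and 0.03 in MLTC-1 cells, which gave no sign of pairing by replicate number. In primary cells they correlated at -0.09, and differently numbered ones at 0.09. With 2 libraries a group the deviations mirror each other, so these are a single value that cannot decide on pairing. With the replicate number as a block, 3127 genes were higher and 3233 lower with hymeglusin, and 2088 and 2686 with age, with 1 and 1 and with 7 and 1 of the members called. Counts under the floor limit what can be said of Il6, Ccl2, Ccl5, Ccl7, Ccl8 and Cxcl2 in MLTC-1 cells.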

Other observations

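Levels of the neighbours of the members in their clusters varied widely. On chromosome 11, between Ccl7 and Ccl8, Ccl11 had 0 and 6 counts at 24 months and 0 and 2 at 2 months, and Ccl12 had 2 and 12 counts at 24 months and 0 in both 2-month libraries, so both stood far below Ccl2 with its 399 and 1076 counts at 24 months. On chromosome 5, Cxcl5, a neutrophil attractant near Cxcl1, had 28 and 170 counts at 24 months, against 2 and 24 at 2 months. Cxcl9 and Cxcl11, the interferon-induced neighbours of Cxcl10, had 28 and 52 and 2 and 23 counts at 24 months, against 8 and 5 and 6 and 0 at 2 months, where Cxcl10 itself had 390 and 611. None of these neighbours had more than 4 counts in any MLTC-1 library.

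The genes with the profile most like that of Il6 over the 10 libraries, by the root mean square difference of centred log2 CPM, were Jchain (0.63), Obp2b (0.68) and S100a8 (0.68). For Ccl2 they were Azgp1 (0.63), Ly6a (0.69) and Serpina3b (0.73). For Cxcl12 they were Pcnp (0.06), Golga7 (0.08) and Scfd1 (0.08). The first profiles rest largely on the difference between the 24-month libraries and the other libraries: Jchain had 134 and 660 counts at 24 months, against 7 and 18 at 2 months, and S100a8 had 15 and 509 counts at 24 months, against 0 and 0 at 2 months.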
